A study of Homo sapiens with 9 samples.

Results

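The 9 genes described here encode the plasminogen activators PLAU and PLAT, the urokinase receptor PLAUR, the serpins SERPINE2, SERPINB2, SERPINA1 and SERPINA3, and the protease inhibitors A2M and SLPI. They were taken by symbol from a table of 56809 genes, and all 9 were found in it. RNA was sequenced from MDA-MB-468, an established human breast adenocarcinoma cell line, in 9 libraries of 200000 harvested cells each. Each group held 3 libraries: cells infected with the empty hairpin vector pSicoR (control), cells infected with pSicoR carrying the short hairpin shLMO2-1, and cells infected with pSicoR carrying shLMO2-2. Cells trim such hairpins to small interfering RNAs, which reduce matching transcripts. Here the hairpins carry the name of LMO2, a cofactor with LIM domains that bridges transcription factors. All groups share 1 cell line, the infection and the vector backbone. No scrambled hairpin is among the samples, so carrying a hairpin and carrying a hairpin to LMO2 cannot be told apart. The time after infection is not given in the sources used here. Nothing in the labels says that the 3 libraries of a group came from separate infections, so p-values measure the spread between these libraries, which may be technical.

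Urokinase (PLAU) and tissue plasminogen activator (PLAT) are secreted serine proteases that cut plasminogen into plasmin, which degrades fibrin and matrix proteins. PLAUR holds urokinase at the cell surface, and serpins act as suicide substrates that trap such proteases. Alpha-2-macroglobulin (A2M) cages proteases of many kinds, and SLPI blocks elastase-like enzymes on mucosal surfaces. In breast carcinoma, urokinase is known as a marker of tumour spread.

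Library totals lay between 15494486 and 23069456 counts, and the shLMO2-2 libraries were the deepest. Abundance is given as CPM, a gene's count relative to its library's total on the usual scale, after TMM scaling of the totals unless the plain total is named. LMO2 itself rested on 4, 35 and 19 counts in the controls, on 2, 1 and 6 in shLMO2-1 and on 1, 4 and 3 in shLMO2-2, so the check of the target is weak. LMO2 also overlaps AC132216.1 on the other strand and is uncertain to that extent. Its fall passed the test in shLMO2-2 (log2 fold change −3.02, SE 0.820, adjusted p 0.0442) and not in shLMO2-1 (−2.44, SE 0.813, adjusted p 0.0909). That call went when control replicate 2 or 3, shLMO2-1 replicate 1 or 2, or any shLMO2-2 library was left out, with only the 2 groups compared (−3.03, adjusted p 0.0621) and under limma-voom (0.0930). Without control replicate 2 the value was −2.32 (adjusted p 0.138), and over all alternatives the adjusted p ran from 0.00296 to 0.138. The shLMO2-1 fall passed without control replicate 1 (−2.90, adjusted p 0.0270) and with no filter on low counts (0.0253). Control replicate 1 stood apart on the first principal component (24.2% of the variance), at −47.8 against −20.6 and −23.6 for the other controls and −0.9 to 33.8 for the hairpin libraries. Carcinoma epithelium markers were high in every library, with EPCAM at 372 to 442 CPM of the plain total and EGFR at 4815 to 7875. Of 7 such markers, KRT8 and EGFR rose in shLMO2-1 and KRT8, KRT18 and KRT19 in shLMO2-2, and 0 fell. Over all tested genes 4.53% and 4.91% rose. The summed level of the 7 was 11553 to 12281 CPM in control, 14346 to 15088 in shLMO2-1 and 13066 to 14243 in shLMO2-2. EGFR (mean 6313 CPM of the plain total) and KRT8 (2293) were the largest parts of this sum. EPCAM (log2 fold change −0.15 in shLMO2-1 and −0.09 in shLMO2-2) and CDH1 (−0.11 and −0.14) leaned lower without passing, while the keratins and EGFR leaned higher. The progesterone receptor gene PGR, the T cell gene CD3E, LYZ and the fibroblast gene LUM were at 0 counts in all 9 libraries. Some other genes of these classes were present: on the plain total, ESR1 was at 2.43 to 6.19 CPM and the fibroblast gene COL1A1 at 9.54 to 17.2. The fibroblast genes COL1A2, DCN and PDGFRB reached at most 0.0433, 0.241 and 0.310 CPM. Of the endothelium markers, KDR was at 3.77 to 12.7 CPM, CDH5 at 0.804 to 2.71, VWF at 0.260 to 1.34 and PECAM1 at 0.173 to 1.05. The leukocyte marker PTPRC was at 0.0433 to 0.348 CPM. Of 5 leukocyte markers, CD14 and CD68 rose in shLMO2-1 and CD14 in shLMO2-2, and the summed level of the 5 was 1.53 to 2.20 CPM in control, 3.13 to 5.59 in shLMO2-1 and 3.83 to 4.52 in shLMO2-2. The CD14 and CD68 calls went with the loss of single libraries, at adjusted p up to 0.132. The part of these marker shifts in the results below was not tested.

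Of the 9 genes, 4 passed the test against control with at least 1 hairpin, and not all in the same direction. SERPINE2 rose with both hairpins, SLPI rose with shLMO2-2, A2M fell with shLMO2-1 and SERPINA3 fell with shLMO2-2. There were 2 genes past the threshold in shLMO2-1 (1 higher, 1 lower) and 3 in shLMO2-2 (2 higher, 1 lower). The threshold was an adjusted p of 0.05 in edgeR's quasi-likelihood test. Of 14711 tested genes, 8.42% passed in shLMO2-1 (4.53% higher, 3.88% lower) and 8.93% in shLMO2-2 (4.91% higher, 4.02% lower). Between the hairpins edgeR called 0 of the 9 genes (0.768% of all genes, 0.347% higher and 0.421% lower), although 4 had an unadjusted p under 0.05, as had 10.5% of all tested genes. DESeq2 called 2 of them there, SLPI and PLAU, and limma-voom called 0. The median log2 fold change of the 9 genes was 0.06 in shLMO2-1 and −0.33 in shLMO2-2, where the medians of all tested genes were 0.001 and −0.000. Both hairpin comparisons use the same 3 control libraries, so they are not independent of each other. In bulk RNA, fewer cells that express a gene and less of its RNA per cell cannot be told apart.

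**Figure D1:**
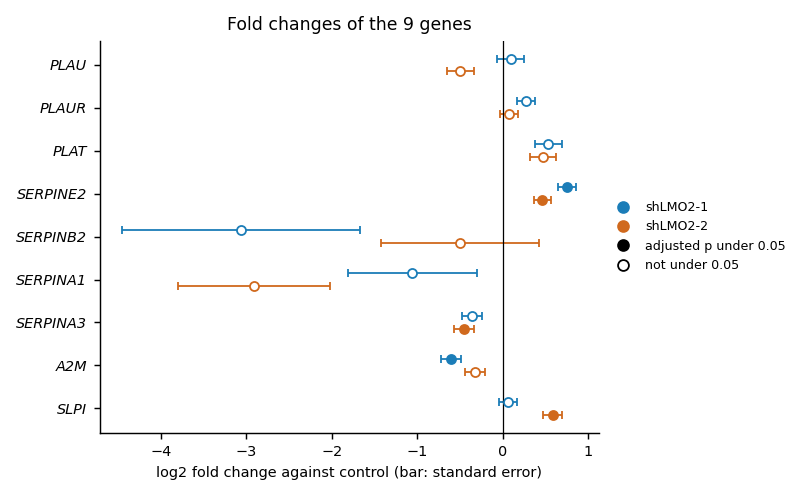
Log2 fold change against control (x axis) of each of the 9 genes (y axis) for shLMO2-1 (blue) and shLMO2-2 (orange); bars are standard errors from the edgeR fit, and filled points have an adjusted p under 0.05. SERPINE2 is filled for both hairpins, A2M for shLMO2-1 alone, and SERPINA3 and SLPI for shLMO2-2 alone; the bars of SERPINB2 and SERPINA1 are the widest, since these genes rest on 0 to 11 counts per library.

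The 3 libraries of a hairpin lay all above or all below the 3 controls for 6 of the 9 genes with either hairpin. Over all tested genes that share was 28.3% for shLMO2-1 and 29.9% for shLMO2-2. The 6 were PLAUR, PLAT, SERPINE2, SERPINB2, SERPINA3 and A2M in shLMO2-1, and PLAU, PLAT, SERPINE2, SERPINA1, SERPINA3 and SLPI in shLMO2-2. Some gaps were slight: 0.133 CPM for PLAUR in shLMO2-1 and 0.00967 CPM for SERPINA1 in shLMO2-2. On the plain total PLAUR overlapped, with control replicate 1 at 42.3 CPM against 41.2, 43.3 and 40.5 in shLMO2-1. SERPINB2 rested on 3, 5 and 4 counts in control against 0, 1 and 0 in shLMO2-1. Without control replicate 1, the library that stood apart, 4 of the 9 genes were called in shLMO2-1, with PLAUR (0.39, adjusted p 0.0270) and SERPINA3 (−0.43, adjusted p 0.0491) added to SERPINE2 and A2M. In shLMO2-2, leaving it out added PLAU (−0.60, adjusted p 0.0480). Over all genes these fits called 1397 and 1133.

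**Figure D2:**
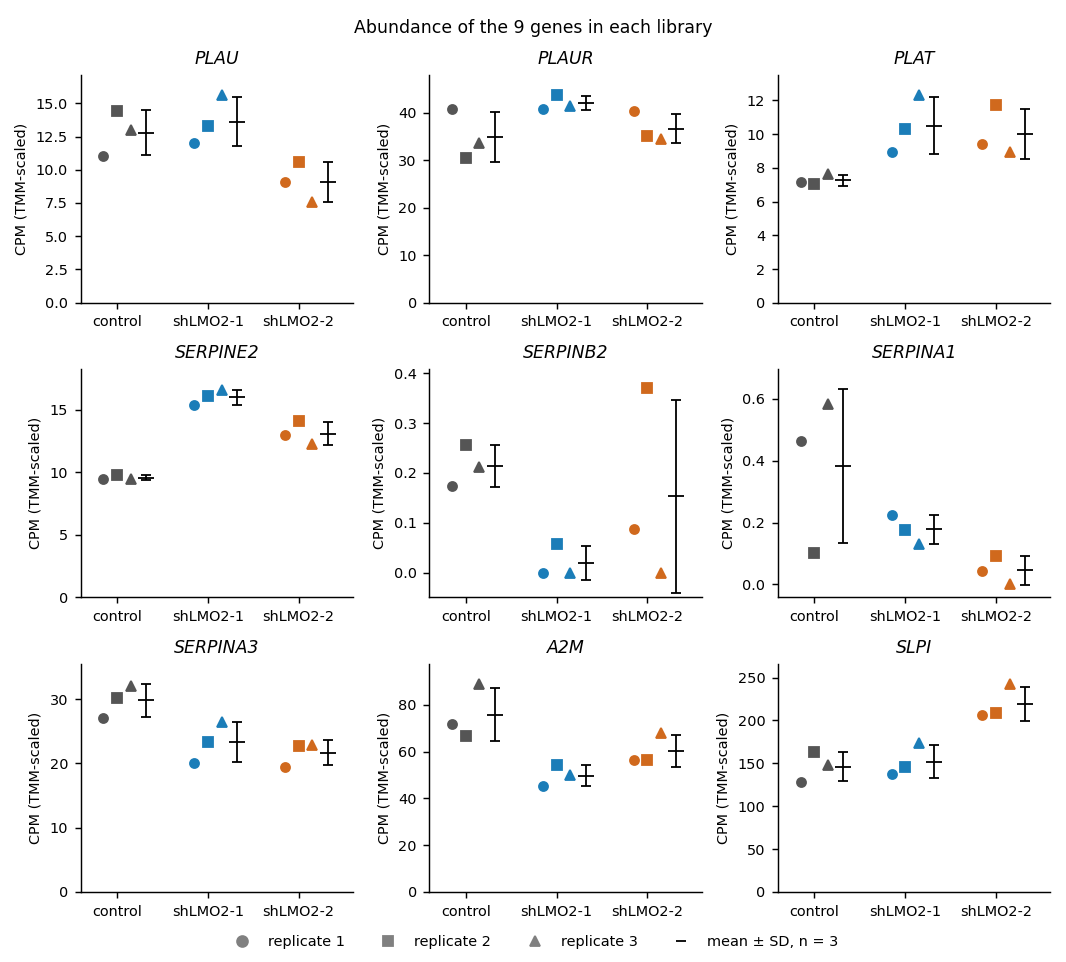
TMM-scaled CPM (y axis) of the 9 genes in each library by group (x axis), with symbols for replicates and black marks for the mean ± SD of 3 libraries. The control SERPINE2 libraries lie at 9.45 to 9.79 CPM with all 6 hairpin libraries above them, and the 3 shLMO2-2 libraries of SLPI lie at 206 to 242 CPM, above the other 6.

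Levels were compared between genes per kilobase of the longest coding transcript in GENCODE 29. In control cells SLPI was the most abundant, at 246 ± 28.9 CPM per kilobase (SD, n = 3). PLAUR followed at 21.7 ± 3.28, A2M at 15.7 ± 2.36, SERPINA3 at 11.2 ± 0.940, PLAU at 4.81 ± 0.631, SERPINE2 at 3.72 ± 0.0749 and PLAT at 2.68 ± 0.116 CPM per kilobase. SERPINA1 and SERPINB2 were near the floor, at 0.108 ± 0.0707 and 0.0992 ± 0.0191 CPM per kilobase. Only SERPINA1 and SERPINB2 overlapped among neighbours in this order of control libraries. The order depends on the transcript chosen: per kilobase of the shortest coding transcript, SERPINA3 (18.9) stood above A2M (15.7) and SERPINE2 (5.58) above PLAU (5.51). The substrate gene PLG was at 0 to 0.131 CPM of the plain total.

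PLAU, the urokinase gene (chromosome 10, 73909177–73917497, plus strand, GENCODE 29, GRCh38), was lower in all 3 shLMO2-2 libraries than in any other library. Its abundance was 11.0, 14.4 and 13.0 CPM in control replicates 1 to 3, 12, 13.3 and 15.6 CPM in shLMO2-1, and 9.09, 10.6 and 7.55 CPM in shLMO2-2. The shLMO2-1 libraries overlapped the controls. The log2 fold change was 0.09 (SE 0.157, adjusted p 0.786) in shLMO2-1 and −0.50 (SE 0.158, adjusted p 0.0772) in shLMO2-2. shLMO2-2 differed from shLMO2-1 by −0.59 (SE 0.159, adjusted p 0.158). None of the 3 passed with all libraries in the filtered edgeR fit. Under DESeq2 and with no filter the hairpins differed (adjusted p 0.0469 and 0.0271). The shLMO2-2 value passed without control replicate 1, as given above, under DESeq2 (−0.50, adjusted p 0.0417) and with no filter on low counts (−0.49, adjusted p 0.0326), over a range of 0.0326 to 0.229 across alternatives. PLAU overlaps C10orf55, which held 3 to 11 counts per library, and is uncertain to that small extent.

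PLAT, the gene of tissue plasminogen activator (chromosome 8, 42175233–42207724, minus strand), lay above all controls in all 6 hairpin libraries. Its abundance was 7.13, 7.02 and 7.61 CPM in control, 8.94, 10.3 and 12.3 CPM in shLMO2-1, and 9.44, 11.7 and 8.94 CPM in shLMO2-2. The controls were tight, with an SD of 0.314 CPM, while the hairpin libraries spread by 1.71 and 1.47 CPM. The log2 fold change was 0.53 (SE 0.155, adjusted p 0.0584) in shLMO2-1 and 0.47 (SE 0.153, adjusted p 0.0846) in shLMO2-2. Neither passed, though the shLMO2-1 value did with no filter on low counts (adjusted p 0.0393) and under DESeq2 (0.0332), over a range of 0.0324 to 0.196. The hairpins differed by −0.07 (SE 0.15, adjusted p 0.934), and their libraries overlapped.

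PLAUR, the receptor that holds urokinase on the cell surface (chromosome 19, 43646095–43670547, minus strand), passed in no comparison. It was at 40.8, 30.4 and 33.6 CPM in control, 40.9, 43.7 and 41.4 CPM in shLMO2-1, and 40.3, 35.2 and 34.5 CPM in shLMO2-2. The highest control, replicate 1, was level with the lowest shLMO2-1 library. The log2 fold change was 0.27 (SE 0.109, adjusted p 0.161) in shLMO2-1 and 0.07 (SE 0.109, adjusted p 0.731) in shLMO2-2.

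The activators were also set against each other as a ratio of counts within each library, which scaling does not touch. Neither gene passed against control, and no test below supports a difference in the ratio. There were 1.54, 2.04 and 1.71 PLAU counts per PLAT count in the controls, 1.34, 1.30 and 1.27 in shLMO2-1, and 0.96, 0.90 and 0.84 in shLMO2-2. The 3 groups did not overlap, and PLAU had more counts than PLAT in the controls and shLMO2-1 and fewer in shLMO2-2. Geometric means were 1.75, 1.30 and 0.90. A two-sided exact permutation test gave p = 0.1 for each pair of groups, the smallest p that 3 against 3 libraries allow, and 0.2 after Benjamini-Hochberg adjustment over 12 tests. These tests cover 4 ratios chosen after their values were seen. PLAU counts per PLAUR count were 0.27, 0.47 and 0.39 in control, 0.29, 0.30 and 0.38 in shLMO2-1, and 0.23, 0.30 and 0.22 in shLMO2-2, so these groups overlapped (p = 0.6 and 0.2 against control by the same exact test).

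**Figure D3:**
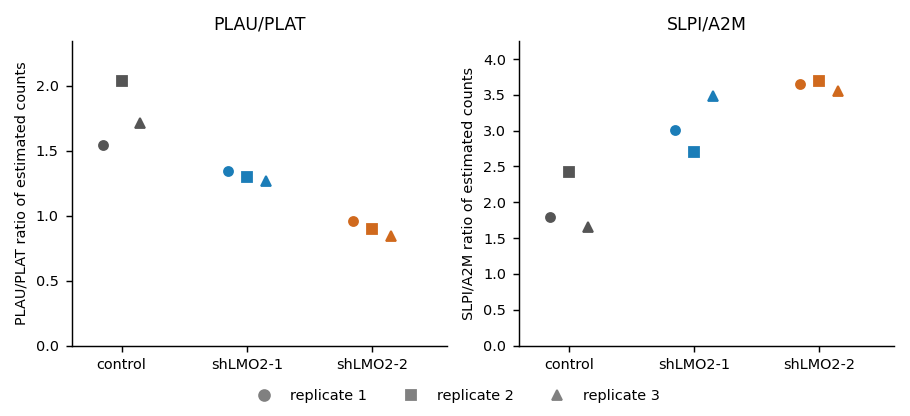
Ratio of estimated counts (y axis) within each library for PLAU over PLAT (left) and SLPI over A2M (right), by group (x axis) and with symbols for replicates. The PLAU/PLAT ratio lies at 1.54 to 2.04 in control and at 0.84 to 0.96 in shLMO2-2, and the SLPI/A2M ratio at 1.66 to 2.43 in control and at 2.70 to 3.70 in the 6 hairpin libraries.

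SERPINE2, or protease nexin-1, an inhibitor of thrombin, urokinase and tissue plasminogen activator (chromosome 2, 223975112–224039319, minus strand), rose with both hairpins. Its abundance was 9.45, 9.79 and 9.46 CPM in control, 15.4, 16.1 and 16.6 CPM in shLMO2-1, and 13.0, 14.1 and 12.3 CPM in shLMO2-2. The groups did not overlap: every shLMO2-1 library was above every shLMO2-2 library, and these above every control. It rose 1.68-fold in shLMO2-1 (log2 fold change 0.75, SE 0.102, adjusted p 0.00175) and 1.37-fold in shLMO2-2 (0.46, SE 0.101, adjusted p 0.0206). Between the hairpins the value was −0.29 and missed the threshold (SE 0.0991, adjusted p 0.300). The shLMO2-1 call held under all 18 alternatives. The shLMO2-2 call depended on control replicate 3 (adjusted p 0.0666 when it was left out) and on shLMO2-2 replicates 1 (0.0555) and 2 (0.0903). It was also missed with only the 2 groups compared (0.0579), and the alternatives spanned 0.00773 to 0.0903.

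Because SERPINE2 was the gene called with both hairpins, its promoter windows are shown, 250 bases before to 50 after each RefSeq start (GRCh38.p14, minus strand, chr2:224031429-224031728 and chr2:224038591-224038890). Capitals mark the letters CCAAT on either strand, the box bound by NF-Y.
SERPINE2 window 1: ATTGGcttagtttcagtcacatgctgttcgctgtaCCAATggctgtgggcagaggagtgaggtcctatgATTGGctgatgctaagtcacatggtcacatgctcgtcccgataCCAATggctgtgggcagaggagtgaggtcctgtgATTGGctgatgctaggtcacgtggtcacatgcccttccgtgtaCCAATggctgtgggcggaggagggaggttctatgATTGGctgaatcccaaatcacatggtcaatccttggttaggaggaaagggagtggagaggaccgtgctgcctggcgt
SERPINE2 window 2: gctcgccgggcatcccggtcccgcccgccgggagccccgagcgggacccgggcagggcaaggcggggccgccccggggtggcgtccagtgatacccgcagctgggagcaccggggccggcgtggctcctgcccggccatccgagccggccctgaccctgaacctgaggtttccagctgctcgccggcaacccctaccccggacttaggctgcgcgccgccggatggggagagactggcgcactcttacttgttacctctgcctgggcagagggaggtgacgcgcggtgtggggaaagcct
The first window held 7 such matches, alternating between the strands, and at least 7 matches were found in 0.0228% of 35116 windows of the same length. The stretches from each CCAAT to the next ATTGG are near copies of each other, so these matches are not independent. CCAAT was picked from several motifs searched, and the cut of 7 was taken from this window. The share is therefore a description and not a test. At least 1 match was found in 34.6% of all windows, and the second SERPINE2 window held 0 in a sequence of 73.7% GC. The deposited values are per gene, so which of the starts gave the SERPINE2 counts is not known from them.

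SERPINA3, alpha-1-antichymotrypsin, an acute-phase inhibitor of cathepsin G (chromosome 14, 94612377–94624055, plus strand), was below all controls in all 6 hairpin libraries. It was at 27.1, 30.2 and 32.1 CPM in control, 20.1, 23.4 and 26.4 CPM in shLMO2-1, and 19.5, 22.7 and 22.9 CPM in shLMO2-2. The highest shLMO2-1 library came within 0.758 CPM of the lowest control. The fall passed in shLMO2-2 (log2 fold change −0.46, SE 0.116, adjusted p 0.0356) and not in shLMO2-1 (−0.36, SE 0.117, adjusted p 0.0860), where it did pass with library totals only (−0.40, adjusted p 0.0466). The hairpins differed by −0.10 (SE 0.118, adjusted p 0.862). The shLMO2-2 call depended on control replicates 2 (adjusted p 0.0696 when left out) and 3 (0.118), on shLMO2-1 replicate 2 (0.0572) and on each shLMO2-2 library (0.104, 0.0789 and 0.0764). The alternatives spanned 0.00308 to 0.118. The values of 6 libraries were not whole, and the overlapping AL049839.2 held 0 to 11.94 counts, so SERPINA3 is uncertain to that extent.

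SERPINA3 is the other called gene matched in the RefSeq promoter table used here, and its window is shown (chr14:94612141-94612440, plus strand, GRCh38.p14), with GATA-factor motifs in capitals, since LMO2 is known to join GATA factors in blood cells. The motif was searched on both strands as AGATAA and its variants with T in the first place, G in the last place, or both.
SERPINA3 window: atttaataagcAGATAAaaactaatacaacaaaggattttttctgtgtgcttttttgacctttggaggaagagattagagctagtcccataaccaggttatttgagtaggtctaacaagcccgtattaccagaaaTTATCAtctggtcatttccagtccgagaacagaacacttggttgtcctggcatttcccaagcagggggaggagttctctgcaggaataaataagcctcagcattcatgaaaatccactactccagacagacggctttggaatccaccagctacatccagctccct
It held 2 matches, the second overlapping an E-box (CAGNTG on either strand). Of all 35116 windows, 25% held at least 1 GATA match and 49.9% at least 1 E-box. The share with 2 GATA matches or with such an overlap was not computed, so these matches are a description. Windows were found for 6 of the 9 genes. The PLAU window that starts upstream also held 2 matches, and the windows of PLAUR, SERPINE2, SERPINB2 and SERPINA1 held 0.

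SERPINB2 and SERPINA1 were barely expressed, and both failed the filter on low counts and were added back to the fit. SERPINB2, or PAI-2, an inhibitor of urokinase (chromosome 18, 63871692–63903890, plus strand), had 3, 5 and 4 counts in control, 0, 1 and 0 in shLMO2-1, and 2, 8 and 0 in shLMO2-2. For a count of 0 the exact Poisson interval at 95% reached up to 0.209 and 0.238 CPM of the plain total in shLMO2-1 replicates 1 and 3. In shLMO2-2 replicate 3 it reached up to 0.160 CPM. The groups sum to 12, 1 and 10 counts, and the adjusted p was 0.208 in shLMO2-1 and 0.786 in shLMO2-2. SERPINB2 overlaps SERPINB10, which held 0 to 2 counts per library, and is uncertain to that extent. SERPINA1, alpha-1-antitrypsin, the main blood inhibitor of neutrophil elastase (chromosome 14, 94376747–94390693, minus strand), had 8, 2 and 11 counts in control, 4, 3 and 2 in shLMO2-1, and 1, 2 and 0 in shLMO2-2. Control replicate 2 sat among the hairpin libraries, with an exact Poisson interval at 95% of 0.0125 to 0.373 CPM against 0.208 to 0.948 for replicate 1. Such intervals cover counting error only. The log2 fold change was −1.06 (SE 0.753, adjusted p 0.435) in shLMO2-1 and −2.91 (SE 0.893, adjusted p 0.0692) in shLMO2-2, and without control replicate 2 the latter passed (−3.36, adjusted p 0.0372). At this depth no firmer statement can be made on either gene.

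A2M, alpha-2-macroglobulin (chromosome 12, 9067664–9116229, minus strand), fell with shLMO2-1. It was at 71.9, 66.9 and 88.8 CPM in control, 45.3, 54.2 and 50 CPM in shLMO2-1, and 56.4, 56.5 and 68.0 CPM in shLMO2-2. All shLMO2-1 libraries were below all others, while shLMO2-2 replicate 3 lay above the lowest control. The log2 fold change was −0.61 in shLMO2-1 (SE 0.118, adjusted p 0.0115), a level 0.66 times that of control, and this call held under all 18 alternatives. In shLMO2-2 the value was −0.33 (SE 0.116, adjusted p 0.103), which did not pass but did with no filter on low counts (adjusted p 0.0149). The hairpins differed by 0.27 (SE 0.118, adjusted p 0.428). The antisense gene A2M-AS1 overlaps A2M and held 1 to 12 counts per library. Whether strand was used in counting is not stated, so reads from the overlap may belong to either gene. A2M itself held 759 to 1679 counts per library, and 0 of its values were not whole.

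SLPI, the secretory leukocyte protease inhibitor (chromosome 20, 45252239–45254564, minus strand), rose with shLMO2-2. It was at 128, 163 and 148 CPM in control, 137, 146 and 174 CPM in shLMO2-1, and 206, 209 and 242 CPM in shLMO2-2. The shLMO2-1 libraries overlapped the controls, and the 3 shLMO2-2 libraries lay above the other 6. SLPI rose 1.5-fold in shLMO2-2 (log2 fold change 0.58, SE 0.110, adjusted p 0.00975) and was at 0.06 (SE 0.110, adjusted p 0.806) in shLMO2-1. The test of the difference between the hairpins gave 0.52 (SE 0.110, adjusted p 0.0636). That difference passed under DESeq2 (adjusted p 0.00128), with no filter (2.82e-06), with library totals only (0.0419), with only the 2 groups compared (0.0304), and without control replicate 1 (0.0186) or shLMO2-1 replicate 3 (0.0424). The alternatives reached up to 0.296. The call against control missed the threshold without shLMO2-2 replicate 3 (0.49, adjusted p 0.0501).

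SLPI lies on chromosome 20 in a cluster of genes for small inhibitors with a WAP domain. PI3, or elafin, an elastase inhibitor of the same family (45174876–45176544, plus strand), rose with both hairpins. PI3 was at 127, 137 and 137 CPM in control, 156, 158 and 178 CPM in shLMO2-1, and 211, 198 and 208 CPM in shLMO2-2, and the 3 groups did not overlap. It rose 1.23-fold in shLMO2-1 (log2 fold change 0.29, SE 0.0679, adjusted p 0.0249) and 1.54-fold in shLMO2-2 (0.62, SE 0.0678, adjusted p 0.000521). The hairpins differed by 0.33 and missed the threshold (SE 0.0675, adjusted p 0.0569). That difference passed under DESeq2 (0.00123), limma-voom (0.0453) and library totals only (0.0435), among others, and the alternatives reached up to 0.291. The shLMO2-1 call depended on control replicate 3 (0.0608 when left out) and shLMO2-1 replicates 2 (0.0554) and 3 (0.0882), and was missed with only the 2 groups compared (0.0646). Within 500 kb of SLPI, 14 genes were tested: PI3 was called in shLMO2-1, and PI3 and DBNDD2 (−0.49) in shLMO2-2. Near the other genes of the set, calls against control fell at PLAUR (3 of 33 tested neighbours in shLMO2-1, 1 of 33 in shLMO2-2), A2M (1 of 9 in shLMO2-2) and SERPINA1, whose 1 called neighbour of 5 was SERPINA3. The tested neighbours of PLAU (18), PLAT (9), SERPINE2 (4), SERPINB2 (5) and SERPINA3 (2) held 0 calls with either hairpin.

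**Figure D4:**
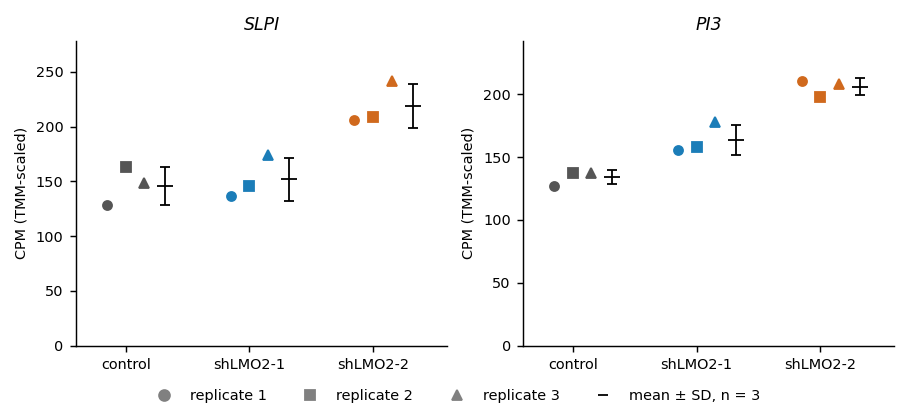
TMM-scaled CPM (y axis) of SLPI (left) and its neighbour PI3 (right) in each library by group (x axis), with symbols for replicates and black marks for the mean ± SD of 3 libraries. Both genes are highest in the 3 shLMO2-2 libraries; in shLMO2-1, PI3 lies at 156 to 178 CPM, above its controls, while SLPI overlaps them at 137 to 174 CPM.

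SLPI and A2M, the inhibitors of the set with the most counts, were compared in the same way. There were 1.79, 2.43 and 1.66 SLPI counts per A2M count in control, 3.01, 2.70 and 3.48 in shLMO2-1, and 3.65, 3.70 and 3.56 in shLMO2-2. No hairpin library overlapped the controls, and the exact permutation p was 0.1 for either hairpin (0.2 after adjustment), again the smallest possible, so this difference is a description too. PLAT counts per SERPINE2 count, an activator beside its inhibitor, were 0.75, 0.72 and 0.80 in control, 0.58, 0.64 and 0.74 in shLMO2-1, and 0.73, 0.83 and 0.73 in shLMO2-2. These overlapped (exact permutation p = 0.2 and 1 against control).

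Of 27 other listed genes of the plasminogen system (plasminogen receptors, clearance receptors and coagulation partners) 15 were tested. In shLMO2-1, 2 rose and 0 fell, and in shLMO2-2 edgeR called 0, where DESeq2 called 2. Between the hairpins 0 were higher and 1, MET, was lower. These counts stand beside 8.42%, 8.93% and 0.768% of all tested genes. The median log2 fold change was 0.12 and 0.04. The plasminogen-binding proteins were abundant, with ANXA2 at 1379 to 1483, ENO1 at 1579 to 1916 and S100A10 at 316 to 370 CPM of the plain total.

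The genes that rose in shLMO2-1 were F2R and LRP1. F2R, the thrombin receptor PAR1, went from 20.8 ± 2.12 to 30.8 ± 2.27 CPM (SD, n = 3; log2 fold change 0.56, SE 0.113, adjusted p 0.0129) and was at 0.30 (adjusted p 0.128) in shLMO2-2. LRP1, the endocytic receptor that clears activator and serpin complexes, went from 16.3 ± 2.58 to 22.9 ± 1.39 CPM (0.50, SE 0.116, adjusted p 0.0263) and was at 0.03 (adjusted p 0.904) in shLMO2-2. Single libraries decided both calls: F2R was lost without shLMO2-1 replicate 2 (0.0620). LRP1 was lost without control replicate 2 (0.0780) or 3 (0.0946) and without shLMO2-1 replicate 1 (0.0597), 2 (0.108) or 3 (0.0632). LRP1 overlaps STAT6 and LRP1-AS, and F2R overlaps AC025188.1, on the other strand, and both are uncertain to that extent.

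Among 26 other serpins, 8 were tested and edgeR called 0 with either hairpin, with median log2 fold changes of 0.05 and 0.02. DESeq2 called 1 in shLMO2-2. Among 27 other protease inhibitors 12 were tested, of which 3 rose in shLMO2-1 and 2 in shLMO2-2, and 0 fell, where 4.53% and 4.91% of all tested genes rose. Beside PI3 these were RECK, a membrane-anchored metalloproteinase inhibitor, and TFPI2, a Kunitz-type inhibitor of plasmin. RECK went from 7.05 ± 0.650 CPM to 11.7 ± 0.877 in shLMO2-1 (0.72, SE 0.141, adjusted p 0.0116) and 11.0 ± 1.56 in shLMO2-2 (0.64, SE 0.140, adjusted p 0.0200), the latter lost without shLMO2-2 replicate 1 (0.0623) or 2 (0.0867). TFPI2 rose in shLMO2-1 (0.58, SE 0.159, adjusted p 0.0457) and was at −0.14 (adjusted p 0.629) in shLMO2-2. The TFPI2 call depended on every library but control replicate 1, at 0.0676 to 0.140. It was also missed with library totals only (0.0666) and with only the 2 groups compared (0.102). Between the hairpins TFPI2 differed by −0.73 (SE 0.159, adjusted p 0.0730). That difference passed under DESeq2 (0.00321) and with only the 2 groups compared (0.00696), and the alternatives reached up to 0.261. TFPI2 overlaps GNGT1 and AC002076.1 on the other strand and is uncertain to that extent.

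Secreted and membrane serine proteases, the possible targets of these inhibitors, were listed as 39 genes, and 18 were tested. In shLMO2-1, 3 rose and 1 fell, and in shLMO2-2, 2 rose and 3 fell, beside 8.42% and 8.93% of all tested genes called. KLK10, a kallikrein, fell from 55.9 ± 6.2 CPM to 31.0 ± 0.986 in shLMO2-1 (−0.85, SE 0.101, adjusted p 0.000758) and 20.6 ± 2.15 in shLMO2-2 (−1.44, SE 0.103, adjusted p 2.66e-05). The members that moved include DPP4 and FAP, which are prolyl peptidases and not trypsin-like. DPP4 rose from 3.16 ± 0.268 CPM to 11.3 ± 1.31 in shLMO2-1 (1.83, SE 0.165, adjusted p 0.000144) and 6.71 ± 0.982 in shLMO2-2 (1.08, SE 0.166, adjusted p 0.00328). FAP fell in shLMO2-2 (−1.94, SE 0.398, adjusted p 0.0144) and was at −0.70 (adjusted p 0.283) in shLMO2-1. TMPRSS4, a transmembrane serine protease, rose in shLMO2-2 (0.87, SE 0.202, adjusted p 0.0252) and was at 0.51 (adjusted p 0.162) in shLMO2-1. The FAP call depended on control replicate 3 (0.0534 when left out) and shLMO2-2 replicates 2 (0.0572) and 3 (0.0573). The TMPRSS4 call depended on control replicate 2 (0.0632) and shLMO2-2 replicates 2 (0.0751) and 3 (0.0956). Named after their values were seen, TMPRSS11E (2.02, adjusted p 0.0286) and KLK6 (0.42, adjusted p 0.0441) rose in shLMO2-1 and HTRA1 (−0.90, adjusted p 0.0351) fell in shLMO2-2. All 3 calls rested on single libraries, at adjusted p up to 0.0927, 0.139 and 0.116. TMPRSS11E needed control replicates 2 and 3 and each shLMO2-1 library, KLK6 every library but shLMO2-2 replicate 3, and HTRA1 every library but control replicate 1 and shLMO2-1 replicate 3. KLK6 was also missed with library totals only (0.0615), upper-quartile scaling (0.0530), limma-voom (0.0546) and only the 2 groups compared (0.0686). HTRA1 was missed in the last of these too (0.0723). TMPRSS11E had few counts, with 9, 3 and 7 in control and 28, 23 and 20 in shLMO2-1. DPP4, FAP, KLK10, KLK6 and HTRA1 overlap transcripts on the other strand, and TMPRSS4 overlaps SMIM35 on the other strand, so they are uncertain to that extent. The neutrophil elastase gene ELANE, a target of SLPI and SERPINA1, was at 0 counts in all 9 libraries.

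SERPINA1 and SERPINA3 belong to the acute-phase genes, so 27 others of that class were listed, of which 11 were tested. With either hairpin 2 rose and 2 fell, again beside 8.42% and 8.93% of all tested genes, and the median log2 fold change was −0.18 and −0.20. The complement gene C3 rose from 19.6 ± 0.919 CPM to 35.3 ± 2.12 in shLMO2-1 (0.85, SE 0.0907, adjusted p 0.000375) and 34.9 ± 2.79 in shLMO2-2 (0.83, SE 0.0899, adjusted p 0.000479). LCN2, the iron-carrier trap lipocalin 2, rose from 15 ± 0.547 CPM to 28.6 ± 1.26 (0.93, SE 0.134, adjusted p 0.00230) and 29.1 ± 6.11 (0.96, SE 0.133, adjusted p 0.00216). SAA1, serum amyloid A1, which has the near-identical copy SAA2 and is uncertain, fell in shLMO2-2 (−0.84, SE 0.116, adjusted p 0.00220) and was at −0.28 (adjusted p 0.162) in shLMO2-1. LBP, the lipopolysaccharide-binding protein, fell from 3.38 ± 1.14 CPM to 0.973 ± 0.137 in shLMO2-1 (−1.79, SE 0.399, adjusted p 0.0209) and 0.437 ± 0.258 in shLMO2-2 (−2.94, SE 0.427, adjusted p 0.00269). The LBP call in shLMO2-1 depended on control replicates 2 (0.0504 when left out) and 3 (0.0907) and on each shLMO2-1 library (0.0551, 0.0793 and 0.0787). C4A, named after its values were seen and uncertain beside its near-identical copy C4B, fell in shLMO2-1 (−1.14, adjusted p 0.0477, up to 0.171 when control replicate 2 or 3, any shLMO2-1 library or shLMO2-2 replicate 2 or 3 was left out). Without control replicate 1, 7 of the listed acute-phase genes were called in shLMO2-1 in place of 4, and without control replicate 2 or 3 or any shLMO2-1 library, 2.

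**Figure D5:**
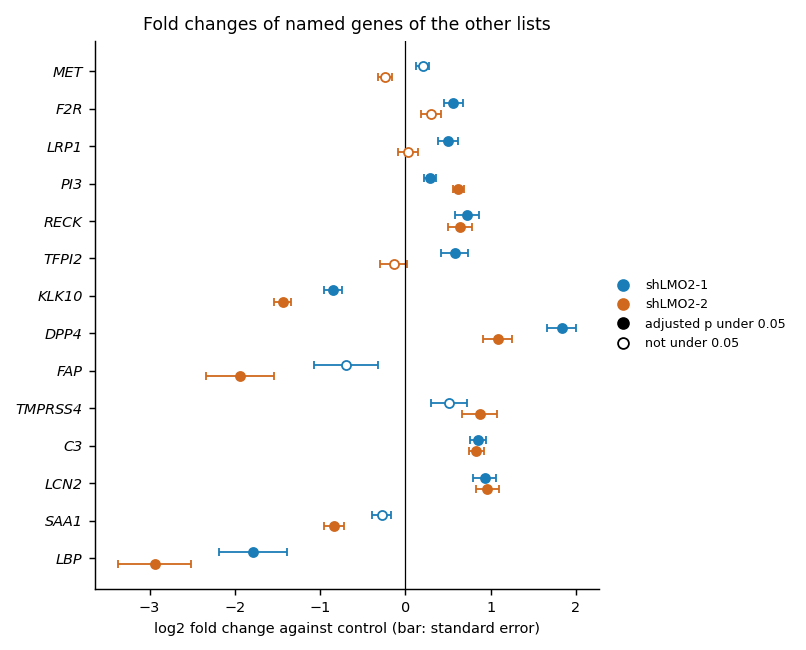
Log2 fold change against control (x axis) of the genes of the other lists with the smallest p-values, up to 4 a list (y axis) for shLMO2-1 (blue) and shLMO2-2 (orange); bars are standard errors from the edgeR fit, and filled points have an adjusted p under 0.05. Among these genes DPP4 stands farthest to the right, at 1.83 in shLMO2-1, and LBP farthest to the left, at −2.94 in shLMO2-2.

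The genes whose pattern over the 9 libraries was most like that of each called gene were sought among 11024 genes of at least 5 CPM, by the root-mean-square difference of log2 CPM centred on each gene's mean. For SERPINE2, which itself deviated from its mean by 0.31 on this scale, these were MN1 (0.065), LGALS9 (0.068) and ITGB5 (0.077). For SERPINA3, with a deviation of 0.23, they were CITED2 (0.068), ZNF354A (0.069) and MARC1 (0.075). For SLPI, with 0.29, they were UPK3BL1 (0.080), TSPAN1 (0.083) and SPDEF (0.091). A2M, with 0.28, had no gene as close: HEATR3 (0.108), KIAA1586 (0.112) and JAK2 (0.116). The median difference over all candidates was 0.28 to 0.34. The libraries, groups and scaling are shared by all of these genes, so the likeness is a description.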

How the data were processed

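The authors deposited estimated counts per gene symbol for 9 libraries. Per the labels' protocols, polyadenylated RNA was enriched before NEBNext Ultra II library preparation. Salmon 0.12, DESeq2 1.22.2 and build GRCh38.p12 are named in the submitters' processing notes, without their roles. Strand and filters are not given in the sources used here. Between 11.7% and 12.8% of a library's values were not whole (tolerance 1e-06), and all were rounded. Libraries were grouped by the plasmid in their labels.

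One edgeR 4.0.16 quasi-likelihood fit (R 4.3.3, TMM, filterByExpr with minimum count 10 and total 15) used all 9 libraries and a factor of 3 groups. It kept 14708 genes. SERPINB2, SERPINA1 and LMO2 were added back, giving 14711 tested genes with 99.91% of the counts. P-values were Benjamini-Hochberg adjusted over these, and the threshold was 0.05. The SE is the log2 fold change over the root of its F statistic. The code was tested on simulated data. Within groups the chi-square per gene was at least 4.84, so no library was treated as a duplicate.

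The 9 genes, the lists and the rule for named genes were chosen with earlier results of these data known. The rule named the 9 genes, LMO2, 1 gene that is not reported here, up to 4 called genes per list with the smallest p, and for each called gene of at least 5 CPM the 3 genes most like it. Coordinates are from GENCODE 29 (GRCh38) and promoters from RefSeq (GRCh38.p14), matched by symbol. Alternatives were other scalings, filters, limma-voom 3.58.1, DESeq2 1.42.0, a fit of the compared groups alone, a block for the replicate number, and dropping each library in turn.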

Additional observations from a re-analysis of the deposited data

Results flagged for a closer look

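For the genes named from the wider lists, the hairpins' effects differed by edgeR's test of shLMO2-2 against shLMO2-1 in 2 cases. MET, the receptor of hepatocyte growth factor, differed by −0.45 (SE 0.0800, adjusted p 0.0323). After TMM scaling all shLMO2-1 libraries (mean 142 ± 3.31 CPM, SD, n = 3) lay above the controls (124 ± 13.9), by a gap of 0.0229 CPM. On the plain total they overlapped, with control replicate 1 at 145 CPM against 142, 145 and 137 in shLMO2-1. All shLMO2-2 libraries (104 ± 4.50) lay below the controls. Neither hairpin passed against control in edgeR (0.20, adjusted p 0.15, and −0.24, adjusted p 0.0838). KLK10 differed by −0.59 (SE 0.104, adjusted p 0.0297). MET did pass against control in shLMO2-1 without control replicate 1 (0.29, adjusted p 0.0158) and in shLMO2-2 under DESeq2 (−0.25, adjusted p 0.0433). Neither difference between the hairpins passed in every fit that left out a library: it missed for MET without any 1 of the 6 hairpin libraries (adjusted p 0.0789 to 0.176), and for KLK10 without control replicate 3, without any shLMO2-1 library, or without shLMO2-2 replicate 2 or 3 (0.0573 to 0.137).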

How the results depend on the processing

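The comparisons were refitted under 18 alternatives. The count of called genes among the 9 was 2 in shLMO2-1, 3 in shLMO2-2 and 0 between the hairpins. With no filter on low counts it became 3, 5 and 2, and under DESeq2 3, 4 and 2. With library totals only it was 3, 3 and 1, and with only the 2 groups compared 2, 2 and 1. Leaving out a library gave 2 to 4, 1 to 4 and 0 to 1. Over all tested genes the calls numbered 1238, 1314 and 113. They became 695, 781 and 188 with only the 2 groups compared, 1680, 1895 and 378 with no filter, and 1754, 1837 and 310 under DESeq2. Without a library they ran from 545 to 1397, from 500 to 1243 and from 38 to 238. The cause was not tested. Replicate numbers were not shown to pair the libraries: deviations of same-numbered libraries correlated at −0.09 to 0.39, though 7 of 9 libraries correlated best with their own number, a hint from the data and not from the design. With the replicate block, 4, 6 and 1 of the 9 genes and 2219, 2385 and 255 of all genes were called. The block added PLAT (0.0324) and SERPINA3 (0.0119) in shLMO2-1, PLAT (0.0481), PLAU (0.0330) and A2M (0.0258) in shLMO2-2, and SLPI between the hairpins (0.00426).

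Signs turned only in values that passed no test. Leaving out a library gave, in shLMO2-1, −0.02 to 0.18 for PLAU and −0.05 to 0.14 for SLPI. Among these PLAU was −0.01 and SLPI −0.03 without control replicate 1. In shLMO2-2 it gave −0.02 to 0.19 for PLAUR, −2.13 to 0.07 for SERPINB2, −0.28 to 0.09 for TFPI2, −0.05 to 0.16 for LRP1 (−0.02 with library totals only) and −0.25 to 0.61 for TMPRSS11E. Between the hairpins it gave −0.20 to 0.06 for PLAT, −1.0 to 0.45 for LMO2, −0.18 to 0.02 for RECK, −0.16 to 0.12 for LCN2, −0.07 to 0.04 for C3, −0.13 to 0.37 for C4A and −0.17 to 0.28 for CD14. CD14 there was −0.01 with library totals only and −0.00 when genes needed 10 counts in all libraries. SERPINB2 and SERPINA1 were not tested under that filter, DESeq2 gave them no adjusted p in shLMO2-1, and at 0 to 11 counts per library, depth limits what they can show.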
